A study of Mus musculus with 60 samples.

Results

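Muscle that lacks dystrophin and muscle in which dystroglycan is poorly glycosylated both degenerate, and the animals described here carry either lesion or both at once. The 20 calf muscle arrays of the age labelled 3 months, of 60 arrays in the series, were used to ask how far the expression changes of the double mutant depart from the sum of the changes in the 2 single mutants. Each of 4 lineages gave 5 arrays, from 5 male mice per the labels. C57Bl/6 is the normal control. Dmdmdx mice carry a mutation of the dystrophin gene Dmd and are the usual mouse model of Duchenne muscular dystrophy. Largemyd mice are a model of the dystroglycanopathies, in which the sugar chains of alpha-dystroglycan are defective. Dmdmdx/Largemyd mice, the double mutant, carry both mutations, and no group was treated. All members were chosen from the age label, and for each gene the contrast was double mutant minus Dmdmdx minus Largemyd plus C57Bl/6, on the log2 expression values the authors deposited.

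A contrast of 0 means that the differences of both single mutants from C57Bl/6 add up, in log2 units, to that of the double mutant. A contrast below 0 means that the double mutant lay below that sum, and one above 0 that it lay above it. The contrast also equals the Largemyd step on the Dmdmdx background (double mutant minus Dmdmdx) less the same step on the normal background (Largemyd minus C57Bl/6). One log2 unit is a 2-fold difference. Every adjusted p is from limma, with Benjamini-Hochberg adjustment over 19938 genes, and a gene passed with an adjusted p under 0.05.

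As background, dystrophin sits under the muscle membrane and binds beta-dystroglycan, while alpha-dystroglycan outside the cell holds laminin in the basement membrane through its sugar chains. Loss of either end of this chain leaves fibres open to damage by contraction, after which macrophages clear debris, satellite cells fuse into new fibres that use embryonic contractile proteins, and matrix is laid down. Whole calf muscle holds fibres, vessels, nerve, fat, fibroblasts and immune cells, so that fewer cells of a type and less RNA per cell cannot be told apart.

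The dystrophin label held in every array group. Dmd, the gene mutated in Dmdmdx, was at 10.03, 9.63, 9.81, 9.41 and 9.76 in the C57Bl/6 arrays, 9.29, 9.59, 9.56, 9.47 and 9.43 in Largemyd, 8.56, 8.60, 8.70, 8.65 and 7.41 in Dmdmdx and 8.76, 8.87, 8.33, 8.48 and 8.74 in the double mutant. The double mutant and Dmdmdx arrays lay below all C57Bl/6 and Largemyd arrays, and the contrast of Dmd was 0.51 ± 0.25 (SE, adjusted p = 0.329). Utrn, the dystrophin relative utrophin, had a contrast of 0.13 ± 0.10 (SE, adjusted p = 0.643), and Dag1, which encodes both dystroglycan chains, one of 0.11 ± 0.15 (SE, adjusted p = 0.851). Of 19 measured genes of the dystrophin complex, 1 passed above 0 (Nos1) and none below 0, against 1.32% and 1.87% of all genes. The 19 genes had a median contrast of 0.18 against 0.0034 over all genes. Without Dmdmdx array 5 that median was 0.04 and Nos1 did not pass, and the same held without the high-Xist arrays, with a median of 0.05. Without Dmdmdx array 5, at 7.41 the lowest for Dmd, the contrast of Dmd was 0.26 and that of Dag1 -0.03.

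Several arrays stood apart. Although all animals are labelled male, C57Bl/6 array 5 and Dmdmdx arrays 4 and 5 had Xist, the RNA of the inactive X chromosome, at 10.6 or above and Y-chromosome genes averaging 5.12 or below, against at most 5.41 and at least 8.38 in the other 17 arrays. Markers of bone marrow or lymph node were raised in C57Bl/6 array 3 and Dmdmdx arrays 3 and 5. The mean of 17 marrow and neutrophil markers ranged from 7.87 to 10.78 in C57Bl/6, 6.44 to 7.15 in Largemyd, 6.67 to 11.35 in Dmdmdx and 6.70 to 6.82 in the double mutant. Dmdmdx array 5 held the highest of these values, and its skeletal muscle markers averaged 12.52, against 13.04 to 13.28 elsewhere. No double-mutant or Largemyd array had high Xist or passed the limit for markers of other tissue. Counts over all genes, and those of many lists, are therefore given with and without the arrays concerned, 5 in all.

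**Figure D1:**
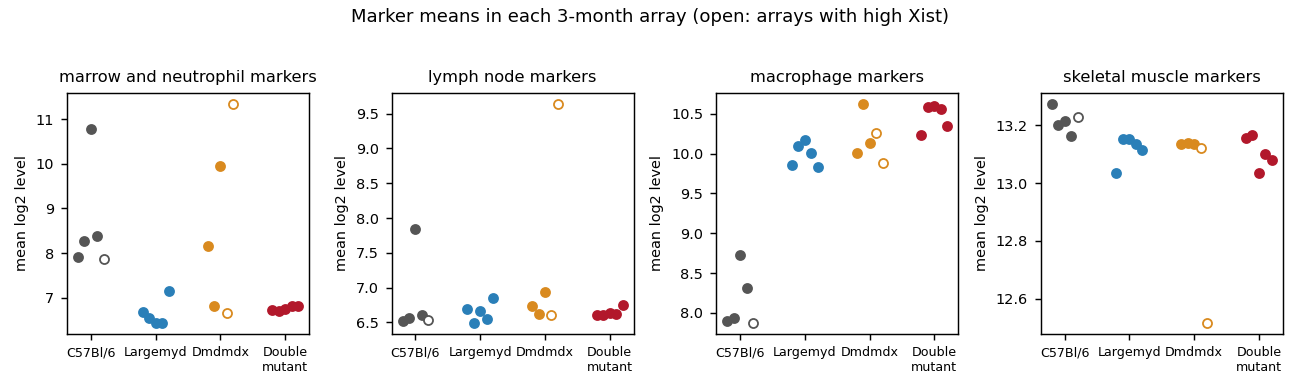
Mean log2 level of the marrow and neutrophil, lymph node, macrophage and skeletal muscle markers (vertical axes) in each of the 20 arrays, by lineage, with open points for the 3 arrays with high Xist. Dmdmdx array 5 has the highest marrow mean (11.35) and the lowest skeletal muscle mean (12.52), while the 5 double-mutant arrays lie close together.

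At 3 months 635 of 19938 genes passed for the contrast (3.18%), 372 of them below 0 (1.87%) and 263 above 0 (1.32%). With array medians subtracted the split was 332 below 0 and 352 above 0. At an unadjusted p under 0.05 the count was 2947. Of the genes that passed, 156 had a contrast of at least 2-fold, 131 below 0 and 25 above 0. The steps behind the contrast were unequal in number. Largemyd differed from C57Bl/6 at 3773 genes (18.9%), while the double mutant differed from Dmdmdx at 402 (2.02%). Likewise Dmdmdx differed from C57Bl/6 at 5606 genes (28.1%), and the double mutant differed from Largemyd at 227 (1.14%). The double mutant differed from C57Bl/6 at 5997 genes (30.1%). Over all 19938 genes, the SD of the Largemyd step was 0.33 on the normal background and 0.21 on the Dmdmdx background, and that of the Dmdmdx step was 0.37 and 0.17.

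The genes that passed below 0 were raised in the mutants. Their median difference from C57Bl/6 was 0.91 in Largemyd, 0.99 in Dmdmdx and 1.06 in the double mutant, and their median step from Dmdmdx to the double mutant was 0.11. Genes that passed above 0 were the reverse, with medians of -0.52, -0.60 and -0.55 against C57Bl/6 and 0.03 for the step from Dmdmdx to the double mutant. These medians use the contrast that chose the genes and are a description. The double-mutant mean was above both single-mutant means in 213 of the 372 genes (57.3%, against 23.6% of all genes) and between them in 130. Of the 263 genes above 0, the double-mutant mean was between both single mutants in 107, above both in 75 and below both in 81, which is 40.7%, 28.5% and 30.8% against 45.8%, 23.6% and 30.7% of all genes. On unlogged values the contrast had the same sign in all 372 and all 263 genes, a description added after the data had been seen. Among genes above 0 the sign was fixed wherever both single-mutant means lay below C57Bl/6, as in 259 of the 263. There a log2 contrast above 0 forces the unlogged contrast above 0, so that count cannot test the choice of scale.

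**Figure D2:**
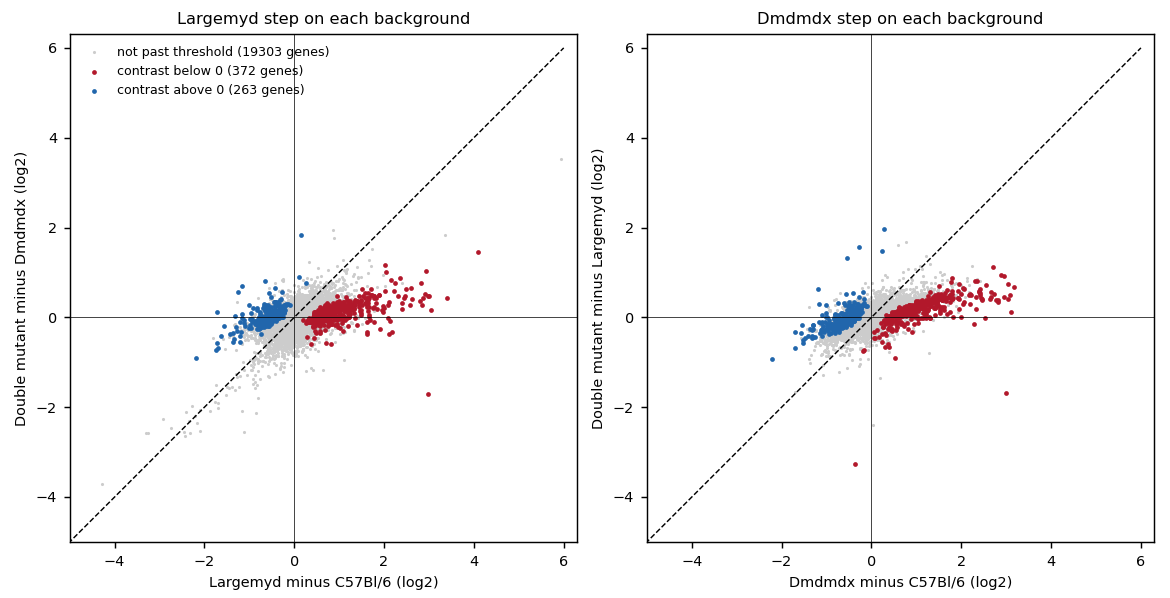
Log2 difference made by one mutation on the normal background (horizontal) against the same mutation on the background of the other (vertical), for Largemyd (left) and Dmdmdx (right). Each point is a gene, red for the 372 that passed below 0 and blue for the 263 that passed above 0, and on the dashed line both steps are equal; the coloured points lie along a vertical step near 0.

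Without the 3 arrays with high Xist 307 genes passed, 227 below 0 and 80 above 0, and without the 3 arrays with markers of other tissue 532 passed, 133 of them above 0. Without both kinds 239 passed, 55 above 0. Single arrays moved these counts as well. Without C57Bl/6 array 2, 422 genes passed and 165 above 0, and without Dmdmdx array 2, 243 passed below 0. Without Dmdmdx array 5 the count above 0 was 138, and 415 of the 635 genes passed both with and without that array, 285 below 0 and 130 above 0. In all, 247 genes passed also without the high-Xist arrays and without the other-tissue arrays, each in turn (184 below 0 and 63 above 0).

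Macrophage genes held the most calls of any list. Of 31 measured macrophage markers, 23 passed below 0 and none above 0, with a median contrast of -1.42. Over all genes, the shares for any list count to be set against were 1.87% below 0 and 1.32% above 0. Their median difference from C57Bl/6 was 1.71 in Largemyd, 1.95 in Dmdmdx and 2.18 in the double mutant, while the sum of both single-mutant differences had a median of 3.53. The mean of these markers ranged from 7.88 to 8.73 in the C57Bl/6 arrays, 9.83 to 10.18 in Largemyd, 9.88 to 10.63 in Dmdmdx and 10.23 to 10.60 in the double mutant. The count below 0 was 18 without the high-Xist arrays, 26 without the other-tissue arrays and 20 without Dmdmdx array 5. Only Fcer1g, Cybb, Tyrobp, Fcgr1, Itgam, Fcgr3, Aif1 and Cd163 did not pass, and their contrasts were below 0 too, from -1.42 to -0.25.

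Gpnmb, a glycoprotein of lipid-laden and phagocytic macrophages, was at 8.16, 7.73, 7.92, 8.42 and 7.85 in the C57Bl/6 arrays, 11.48, 11.39, 11.57, 11.35 and 11.30 in Largemyd, 11.17, 11.90, 11.28, 11.47 and 9.74 in Dmdmdx and 11.14, 11.67, 11.58, 11.65 and 11.64 in the double mutant. All mutant arrays exceeded all C57Bl/6 arrays, and the double mutant overlapped both single mutants, with Dmdmdx array 5 lowest of the mutants. Its contrast of -2.98 ± 0.40 (SE, adjusted p = 4.98e-06) was the largest below 0 after that of Akr1e1. Largemyd exceeded C57Bl/6 by 3.41, whereas the double mutant exceeded Dmdmdx by 0.42 (adjusted p = 0.588). C3ar1, the receptor for the complement fragment C3a, was at 7.99, 8.53, 8.13, 9.06 and 8.001 in the C57Bl/6 arrays, 11.04, 11.28, 11.38, 11.29 and 11.00 in Largemyd, 11.50, 11.94, 11.40, 11.70 and 10.57 in Dmdmdx and 11.47, 11.77, 11.70, 11.82 and 11.75 in the double mutant. Every mutant array was above every C57Bl/6 array, and the double mutant lay above Largemyd and within the Dmdmdx range; the contrast was -2.57 ± 0.37 (SE, adjusted p = 2.13e-05).

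Mmp12, the macrophage elastase, averaged 6.42 ± 0.36 in C57Bl/6, 10.50 ± 0.21 in Largemyd, 9.45 ± 0.72 in Dmdmdx and 10.92 ± 0.28 in the double mutant (mean ± SD, n = 5 each), with a contrast of -2.62 ± 0.50 (SE, adjusted p = 0.00114). Ctss, the lysosomal protease cathepsin S, averaged 8.09, 10.96, 10.90 and 11.34 in the same order of lineages and had a contrast of -2.43 ± 0.41 (SE, adjusted p = 0.000252). Ms4a6d, a membrane protein of monocytes and macrophages, averaged 6.94, 9.52, 9.99 and 10.27, with a contrast of -2.30 ± 0.39 (SE, adjusted p = 0.000286). For all 5 of these genes the contrast passed under every setting tried.

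Chemokines that draw monocytes were among the calls below 0. Of 28 measured chemokines, cytokines and receptors, 7 passed below 0 and none above 0, against 1.87% and 1.32% of all genes. The count below 0 was 7 also without the high-Xist arrays, without the other-tissue arrays and without Dmdmdx array 5. Ccl2, the main ligand of the monocyte receptor Ccr2, was at 7.05, 7.56, 7.25, 7.77 and 7.31 in the C57Bl/6 arrays, 9.08, 9.63, 9.68, 9.66 and 9.42 in Largemyd, 10.36, 10.90, 9.75, 10.40 and 9.65 in Dmdmdx and 9.52, 9.89, 9.71, 10.42 and 9.64 in the double mutant. Double-mutant arrays overlapped those of Dmdmdx and Largemyd. The contrast was -2.49 ± 0.54 (SE, adjusted p = 0.00381), and that of Ccl7, another ligand of the same receptor, was -2.50 ± 0.55 (SE, adjusted p = 0.00458). Ccl8 had a contrast of -1.95, adjusted p = 0.0267, and Ccl3 of -1.84, adjusted p = 0.0296. The call of Ccl8 was lost without the high-Xist arrays and without any one of C57Bl/6 arrays 1 and 5, Largemyd arrays 2 and 3, Dmdmdx array 2 and double-mutant array 5, and that of Ccl3 without any one of C57Bl/6 arrays 1, 2 and 5, Largemyd arrays 3 and 4, Dmdmdx array 2 and double-mutant arrays 1 and 5. The receptor gene Ccr2 (-1.08) did not pass, nor did Il6 (0.24), Tnf (-0.18) or Il1b (-0.13), which encode inflammatory cytokines.

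Of 17 complement genes measured, 8 passed below 0 and none above 0, against 1.87% and 1.32% of all genes. The 8 were C1qa, C1qb, C1qc, C1s1, Cfb, Cfp, C5ar1 and C3ar1. Among them C1qa, C1qb, C1qc and C3ar1 are also macrophage markers, so their calls were counted there too. C1qb, a chain of the C1q recognition molecule, averaged 10.01 ± 0.31 in C57Bl/6, 11.80 ± 0.13 in Largemyd, 11.96 ± 0.35 in Dmdmdx and 12.20 ± 0.19 in the double mutant (mean ± SD, n = 5 each), with a contrast of -1.55 ± 0.24 (SE, adjusted p = 6.05e-05). C1qc, another chain, had a contrast of -1.30 ± 0.27 (SE, adjusted p = 0.00262), and Cfp, the alternative-pathway stabiliser properdin, one of -1.17, adjusted p = 0.0352. C4b (-0.33), C2 (-0.11) and the terminal components C6 (-0.19) and C7 (0.25) did not pass. The count of 8 was 4 without the high-Xist arrays, and 4 or 5 without any one of C57Bl/6 arrays 1, 2 and 5, Largemyd arrays 2 and 3, Dmdmdx array 2 and double-mutant arrays 1 and 5. The call of Cfp was lost without the high-Xist arrays and without any one of C57Bl/6 arrays 1, 2 and 5, Largemyd arrays 1, 2 and 3, Dmdmdx arrays 2 and 5 and double-mutant arrays 1 and 5.

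Among 25 measured proteases and their inhibitors, 12 passed below 0 and none above 0, against 1.87% and 1.32% of all genes. Mmp12 and Ctss are in this list and in that of macrophages. Serpina3n, a secreted inhibitor of serine proteases, was at 8.35, 8.74, 8.91, 8.86 and 8.12 in the C57Bl/6 arrays, 11.15, 11.90, 11.38, 11.28 and 12.30 in Largemyd, 11.92, 11.63, 11.15, 10.72 and 10.15 in Dmdmdx and 11.68, 11.97, 11.21, 11.72 and 11.39 in the double mutant. Mutant arrays again formed 1 overlapping range above C57Bl/6, and the contrast was -2.53 ± 0.47 (SE, adjusted p = 0.00107). Timp1, an inhibitor of matrix metalloproteinases, averaged 7.70 ± 0.43 in C57Bl/6, 10.51 ± 0.33 in Largemyd, 10.16 ± 0.34 in Dmdmdx and 10.91 ± 0.20 in the double mutant (mean ± SD, n = 5 each), with a contrast of -2.06 ± 0.39 (SE, adjusted p = 0.00107). Mmp9 (0.24), Timp3 (0.54) and Adamts1 (0.70) had contrasts above 0 that did not pass. Without the high-Xist arrays 11 of the 25 passed below 0, without the other-tissue arrays 12, and without Dmdmdx array 5 13.

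Other immune lists held few calls, where 1.87% of all genes passed below 0 and 1.32% above 0. No member passed among 22 interferon-induced genes, with a median contrast of -0.53. Irf7, a transcription factor that drives interferon genes, averaged 7.70, 7.90, 9.03 and 8.41 in C57Bl/6, Largemyd, Dmdmdx and the double mutant, with a contrast of -0.81 ± 0.46 (SE, adjusted p = 0.423). Among 14 genes of antigen presentation on MHC molecules none passed either, with a median of -0.44. Lymph node markers had 1 of 16 past the threshold below 0, the cytokine receptor gene Il7r (-2.15, adjusted p = 0.0452), whose call was lost without any one of 16 arrays, all but C57Bl/6 array 3, Largemyd array 1 and Dmdmdx arrays 1 and 3. No marker of marrow and neutrophils, erythroid cells, T and NK cells, mast cells, bone and cartilage or skin passed.

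**Figure D3:**
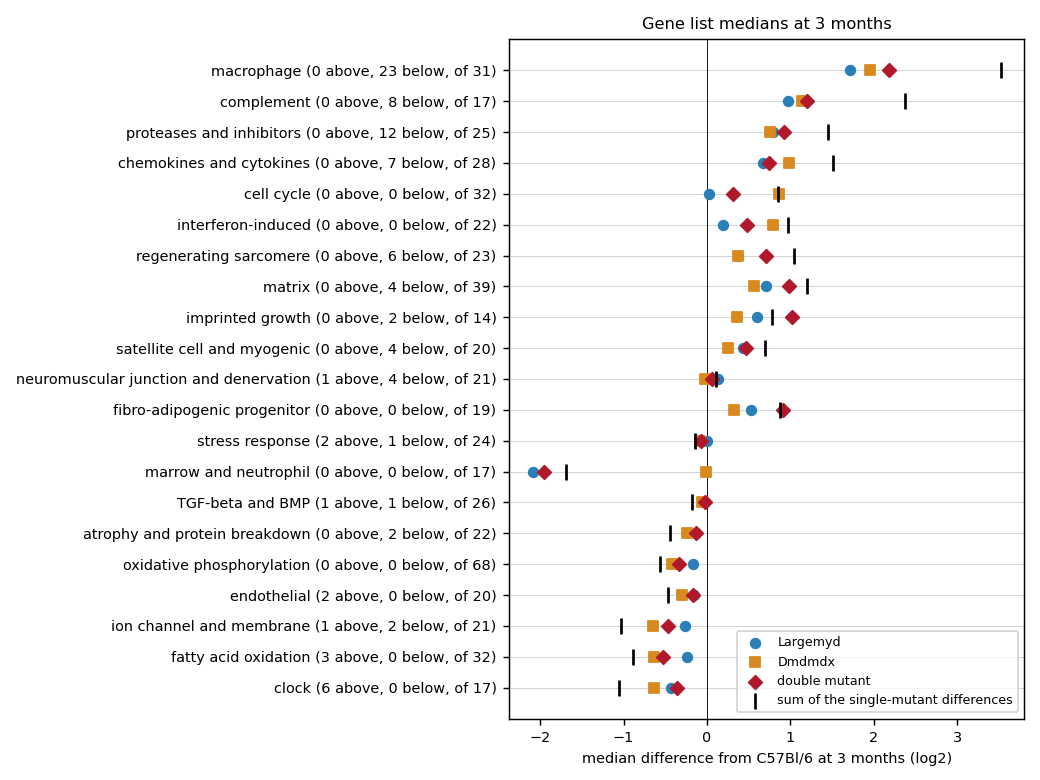
Median log2 difference from C57Bl/6 (horizontal axis) of each list in Largemyd (circles), Dmdmdx (squares) and the double mutant (diamonds), with a tick at the median sum of both single-mutant differences; beside each name stand the members that passed above and below 0 and the number measured. For macrophage genes the double mutant is at 2.18 and the sum at 3.53, and for clock genes at -0.36 and -1.06.

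Some genes of regenerating fibres passed below 0, where 1.87% of all genes did. Of 23 measured genes of embryonic and repairing muscle, 6 passed below 0 and none above 0, and of 20 genes of satellite cells and myogenesis, 4 and none. Below 0, these counts were 7 and 6 without the high-Xist arrays, and 7 and 5 without the other-tissue arrays. The members were mixed in sign, with contrasts below 0 in 13 of the 23 and 14 of the 20, and up to 1.11 in the first list. Myh3, the embryonic myosin heavy chain, was at 7.09, 6.67, 6.82, 6.98 and 6.66 in the C57Bl/6 arrays, 9.66, 9.58, 10.44, 9.99 and 9.46 in Largemyd, 9.82, 10.69, 10.92, 9.96 and 7.64 in Dmdmdx and 10.41, 10.49, 10.48, 9.64 and 10.39 in the double mutant. Dmdmdx array 5 stood below the other mutant arrays, and the contrast of -2.50 ± 0.51 (SE, adjusted p = 0.00273) passed without it as well, at -3.04. Mymk, the membrane protein myomaker through which myoblasts fuse, averaged 7.46 ± 0.26 in C57Bl/6, 10.26 ± 0.35 in Largemyd, 9.75 ± 1.22 in Dmdmdx and 10.11 ± 0.41 in the double mutant (mean ± SD, n = 5 each), with a contrast of -2.44 ± 0.47 (SE, adjusted p = 0.00132). Myl4, an embryonic myosin light chain, averaged 10.66 ± 0.06 in C57Bl/6, 12.75 ± 0.25 in Largemyd, 12.70 ± 0.47 in Dmdmdx and 13.05 ± 0.10 in the double mutant (mean ± SD, n = 5 each), with a contrast of -1.75 ± 0.22 (SE, adjusted p = 2.26e-06). Tnnt2, the cardiac and embryonic troponin T, had a contrast of -1.83 ± 0.42 (SE, adjusted p = 0.0072), which did not pass in a fit of the 20 arrays alone or after quantile normalization of them.

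The same direction held at acetylcholine receptor genes. Of 21 measured genes of the neuromuscular junction and of denervation, 4 passed below 0 (Chrng, Ncam1, Chrna1 and Runx1) and 1 above 0 (Dach2). Chrng is also in the list of embryonic and repairing muscle, and Ncam1 and Chrna1 in that of satellite cells and myogenesis. Their calls were thus already counted above. The shares of all genes were 1.87% below 0 and 1.32% above 0. Dach2 did not pass without the high-Xist arrays, without the other-tissue arrays or without any one of C57Bl/6 arrays 3 and 5, Largemyd arrays 2 and 5, Dmdmdx arrays 2 and 5 and double-mutant arrays 1 and 5. Chrng, the receptor subunit of fetal and regenerating fibres, was at 7.15, 7.20, 6.97, 7.22 and 7.19 in the C57Bl/6 arrays, 8.91, 8.54, 9.18, 8.77 and 8.66 in Largemyd, 8.78, 9.74, 9.80, 8.44 and 7.38 in Dmdmdx and 8.95, 8.95, 9.12, 8.38 and 9.005 in the double mutant. Dmdmdx spread most, from 7.38 to 9.80, and all mutant arrays lay above C57Bl/6. The contrast was -1.61 ± 0.39 (SE, adjusted p = 0.0115), a call lost after quantile normalization. Chrna1, the alpha subunit, averaged 9.40 ± 0.26 in C57Bl/6, 11.04 ± 0.15 in Largemyd, 10.70 ± 0.95 in Dmdmdx and 11.02 ± 0.28 in the double mutant (mean ± SD, n = 5 each), with a contrast of -1.31 ± 0.34 (SE, adjusted p = 0.0173); this call was lost without Dmdmdx array 2, in the fit of the 20 arrays alone and after quantile normalization. Ncam1, an adhesion molecule of young and denervated fibres, had a contrast of -1.38 ± 0.28 (SE, adjusted p = 0.00244). Runx1, a transcription factor of denervated and regenerating muscle, had one of -1.14, adjusted p = 0.00301. The adult subunit Chrne (0.34) and the clustering genes Musk (0.04), Rapsn (0.27) and Dok7 (0.08) did not pass, nor did the satellite cell factors Pax7 (-0.10), Myf5 (0.04) and Myod1 (-0.21). Without the high-Xist arrays 7 of the 21 junction genes passed below 0, without the other-tissue arrays 6, and without Dmdmdx array 5 7.

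Both receptor subunits that passed carry paired copies of a myogenic E-box, the letters CAGCTG that myogenic basic helix-loop-helix factors can bind, within 250 bases before to 50 bases after a gene start. The 2 sequences are printed for this reason, from RefSeq with build GRCm38.p6, with CAGCTG in capitals.
Chrng, chr1:87205561-87205860, plus strand: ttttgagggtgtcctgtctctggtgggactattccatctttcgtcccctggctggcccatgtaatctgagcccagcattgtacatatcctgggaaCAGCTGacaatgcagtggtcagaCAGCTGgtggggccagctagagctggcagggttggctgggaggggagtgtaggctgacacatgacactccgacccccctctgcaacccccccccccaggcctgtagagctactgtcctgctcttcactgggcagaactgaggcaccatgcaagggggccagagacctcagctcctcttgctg
Chrna1, chr2:73580289-73580588, minus strand: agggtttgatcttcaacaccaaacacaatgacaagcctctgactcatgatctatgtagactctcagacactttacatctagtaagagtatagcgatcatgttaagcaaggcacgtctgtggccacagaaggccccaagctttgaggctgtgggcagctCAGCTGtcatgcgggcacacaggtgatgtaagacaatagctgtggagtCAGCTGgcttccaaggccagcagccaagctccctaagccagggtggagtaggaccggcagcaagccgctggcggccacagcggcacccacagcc
Promoters were at hand for 7 of the 9 genes of the satellite cell and regenerating sarcomere lists that passed, and 3 of the 7 (Chrng, Chrna1 and Tnnt2) held at least 1 copy, each with 2 in a single window. Of 32851 mouse promoters of that length, 16.3% held the letters at least once and 1.9% at least 2 times, counted on either strand, since the letters read the same on both. The windows of Myh3, Myl4, Ankrd1 and Igf2 did not hold these letters. The shares count windows, whereas 3 of 7 counts genes, and the 7 genes had 11 windows between them. A match is a description of letters and not evidence of binding.

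Of 14 imprinted growth genes measured, 2 passed below 0, against 1.87% of all genes. The count was 2 also without the high-Xist arrays and without the other-tissue arrays. One of them, Igf2, is in the satellite cell list as well. Igf2, the growth factor Igf-II, was at 9.47, 10.05, 9.03, 9.22 and 9.70 in the C57Bl/6 arrays, 11.64, 11.41, 12.18, 12.09 and 11.23 in Largemyd, 11.43, 11.57, 11.76, 11.43 and 9.996 in Dmdmdx and 11.92, 11.83, 11.92, 11.47 and 12.001 in the double mutant. All mutant arrays other than Dmdmdx array 5 exceeded all C57Bl/6 arrays, and the double mutant overlapped both single mutants. The contrast was -1.62 ± 0.29 (SE, adjusted p = 0.000687). At 21 days it was -0.06 (adjusted p = 0.907) and at 6 months -1.37 (adjusted p = 0.00281). The difference between 3 months and 21 days, -1.56, did not pass (adjusted p = 0.253). Peg3, a zinc finger protein of muscle stem cells, had a contrast of -1.19 ± 0.24 (SE, adjusted p = 0.00216). Meg3 (0.92), Dlk1 (0.32) and Mest (-1.33) did not pass.

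For matrix genes, the median difference from C57Bl/6 was 0.70 in Largemyd, 0.56 in Dmdmdx and 0.98 in the double mutant. Of 39 measured, 4 passed below 0 (Postn, Lox, Fn1 and Bgn) and none above 0, where 1.87% of all genes passed below 0, with a median contrast of -0.30. Postn, periostin, averaged 10.36 ± 0.27 in C57Bl/6, 12.06 ± 0.44 in Largemyd, 12.30 ± 0.13 in Dmdmdx and 12.81 ± 0.12 in the double mutant (mean ± SD, n = 5 each), with a contrast of -1.20 ± 0.32 (SE, adjusted p = 0.0217). Bgn, the proteoglycan biglycan, averaged 11.79 ± 0.31 in C57Bl/6, 12.65 ± 0.12 in Largemyd, 12.56 ± 0.11 in Dmdmdx and 12.77 ± 0.06 in the double mutant (mean ± SD, n = 5 each), with a contrast of -0.64 ± 0.14 (SE, adjusted p = 0.00412). The calls of Postn, Lox and Fn1 were lost without the high-Xist arrays, and that of Fn1 also without the other-tissue arrays. The call of Postn was lost without any one of C57Bl/6 array 5 and Largemyd arrays 3 and 4, and that of Lox without C57Bl/6 array 2 or Largemyd array 5. That of Fn1 was lost without any one of C57Bl/6 arrays 1 and 2, Largemyd arrays 3 and 4, Dmdmdx array 5 and double-mutant arrays 1 and 5. The collagen genes Col1a1 (-0.20), Col1a2 (-0.30) and Col3a1 (-0.60) did not pass. From Dmdmdx to the double mutant 17 of the 39 matrix genes were higher and none lower past the threshold. For the 31 macrophage markers 2 were higher, and of all genes 2.02% passed in either direction. Over all genes this step gave 402 calls, but 141 without the high-Xist arrays, 136 without the other-tissue arrays and 47 without both. The list counts of the step were not repeated without those arrays. Without the high-Xist arrays 1 matrix gene passed for the contrast, without the other-tissue arrays 5, and without C57Bl/6 array 2, Largemyd array 3 or Largemyd array 4, 2. Markers of fibro-adipogenic progenitors, the fibroblast-like cells of muscle, had none of 19 past the threshold and a median contrast of -0.07, which was -0.18 without Dmdmdx array 5.

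Metallothionein and membrane repair genes were among the other calls below 0. Mt2, a metal-binding stress protein, averaged 10.58 ± 0.23 in C57Bl/6, 13.04 ± 0.24 in Largemyd, 12.58 ± 0.47 in Dmdmdx and 13.05 ± 0.15 in the double mutant (mean ± SD, n = 5 each), with a contrast of -1.99 ± 0.34 (SE, adjusted p = 0.000278). Anxa2 (-0.83, adjusted p = 0.0227) and Anxa5 (-0.77, adjusted p = 0.00381) encode annexins, which bind injured membranes; the call of Anxa2 was lost without C57Bl/6 array 2, Dmdmdx array 2 or double-mutant array 1. Among 24 stress response genes, Asns, asparagine synthetase, passed below 0 (-1.27, adjusted p = 0.00922), and Ddit3 (0.60, adjusted p = 0.00301) and Herpud1 (0.55, adjusted p = 0.0125), both induced by stress of the endoplasmic reticulum, passed above 0, Herpud1 not without the high-Xist arrays. Over all genes 1.87% passed below 0 and 1.32% above 0. Asns was highest in Dmdmdx array 5, at 10.55, and its call held without that array.

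**Figure D4:**
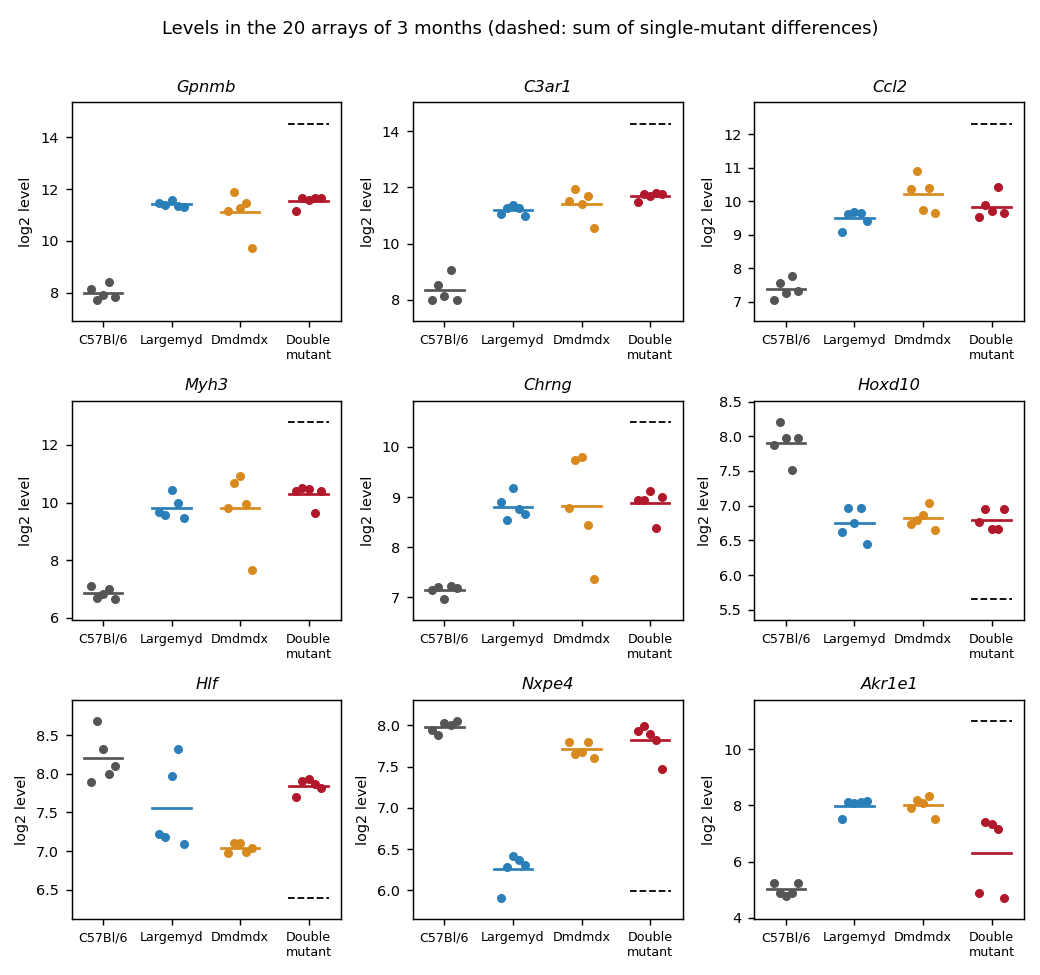
Log2 levels (vertical axes) of 9 genes in the 20 arrays, by lineage, with a bar at each mean and a dashed line where the sum of both single-mutant differences would put the double mutant. Gpnmb, C3ar1, Ccl2, Myh3, Chrng and Akr1e1 lie below that line in every double-mutant array, and Hoxd10, Hlf and Nxpe4 above it.

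Calls above 0 included genes that were low in every mutant. In all mutant arrays Hoxd10 and Hs3st5 lay below the array medians over all genes, which ranged from 7.52 to 7.65. Levels near background could not be marked, and their part in these contrasts was not tested. Hoxd10, a homeobox gene of the hindlimb, was at 7.88, 8.20, 7.97, 7.52 and 7.97 in the C57Bl/6 arrays, 6.62, 6.96, 6.75, 6.97 and 6.45 in Largemyd, 6.74, 6.79, 6.87, 7.03 and 6.65 in Dmdmdx and 6.76, 6.95, 6.67, 6.67 and 6.95 in the double mutant. All 15 mutant arrays lay below all C57Bl/6 arrays and overlapped each other, with a contrast of 1.14 ± 0.16 (SE, adjusted p = 2.13e-05). Hs3st5, an enzyme that sulfates heparan sulfate, was at 8.67, 8.84, 8.72, 8.45 and 8.74 in the C57Bl/6 arrays, 6.94, 7.21, 6.99, 6.96 and 7.15 in Largemyd, 7.32, 7.02, 7.26, 7.36 and 6.63 in Dmdmdx and 6.80, 6.90, 6.72, 6.42 and 6.68 in the double mutant. Double-mutant arrays lay below all Largemyd arrays and overlapped Dmdmdx, yet above the sum of both single-mutant differences, and the contrast was 1.22 ± 0.25 (SE, adjusted p = 0.00244). Ppp1r1a, an inhibitor of protein phosphatase 1, averaged 9.38 ± 0.25 in C57Bl/6, 8.005 ± 0.21 in Largemyd, 7.89 ± 0.24 in Dmdmdx and 7.55 ± 0.15 in the double mutant (mean ± SD, n = 5 each), with a contrast of 1.03 ± 0.21 (SE, adjusted p = 0.00262). Dusp26, a phosphatase, averaged 8.44, 7.22, 7.14 and 7.04 in C57Bl/6, Largemyd, Dmdmdx and the double mutant, with a contrast of 1.12 ± 0.26 (SE, adjusted p = 0.00709).

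Gdap1, a protein of the mitochondrial outer membrane, averaged 8.10 ± 0.51 in C57Bl/6, 6.54 ± 0.21 in Largemyd, 6.54 ± 0.56 in Dmdmdx and 6.36 ± 0.12 in the double mutant (mean ± SD, n = 5 each), with a contrast of 1.37 ± 0.29 (SE, adjusted p = 0.00302). Prss55, a serine protease gene, had a contrast of 1.07, adjusted p = 0.00348, and Phlda3, a target of the tumour suppressor p53, one of 1.28, adjusted p = 0.003; both calls were lost without the high-Xist and other-tissue arrays together. Hoxd10, Hs3st5, Ppp1r1a, Dusp26 and Gdap1 passed under every setting tried.

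Genes of fibre metabolism had contrasts that were mostly above 0 and seldom passed, and their medians depended on Dmdmdx array 5. Of 32 fatty acid oxidation genes, 3 passed above 0, where 1.32% of all genes did, with a median of 0.38. Eci1, an isomerase of unsaturated fatty acids, averaged 10.62 ± 0.19 in C57Bl/6, 10.04 ± 0.08 in Largemyd, 9.87 ± 0.34 in Dmdmdx and 9.88 ± 0.07 in the double mutant (mean ± SD, n = 5 each), with a contrast of 0.59 ± 0.15 (SE, adjusted p = 0.0165). Acadvl, the dehydrogenase of very long chains, had a contrast of 0.55, adjusted p = 0.026, and Slc25a20, the carnitine carrier, one of 0.70, adjusted p = 0.032. Hk2, hexokinase of muscle, was the 1 gene of 25 in glycolysis and glycogen to pass (0.84, adjusted p = 0.0178). The call of Acadvl was lost also without C57Bl/6 array 4 or double-mutant array 1, and that of Slc25a20 without any one of C57Bl/6 arrays 2 and 5, Largemyd arrays 1, 2 and 4, Dmdmdx array 5 and double-mutant arrays 2 and 3. None of these 4 passed without Dmdmdx array 5, the array with the lowest muscle markers and the highest marrow markers. No gene passed among 68 of oxidative phosphorylation (median 0.23), 24 of the tricarboxylic acid cycle and amino acid breakdown (0.22) or 25 of calcium handling (0.25). These medians were smaller without Dmdmdx array 5, at 0.08, 0.08 and 0.03, and without the high-Xist arrays, at 0.06, 0.08 and -0.0021. Without Dmdmdx array 5 the median was 0.21 for fatty acid oxidation and 0.12, against 0.30 with it, for glycolysis and glycogen.

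Further muscle genes had calls that single arrays decided. Those of Nos1, Myh2, Kcna7, Ostn and Lrrc52 were also lost without the high-Xist arrays and without the other-tissue arrays. Nos1, the nitric oxide synthase anchored by dystrophin, averaged 10.01 ± 0.23 in C57Bl/6, 8.30 ± 0.42 in Largemyd, 8.31 ± 0.49 in Dmdmdx and 7.62 ± 0.16 in the double mutant (mean ± SD, n = 5 each). The double mutant was lowest on average, and the contrast of 1.02 ± 0.30 (SE, adjusted p = 0.0412) was lost without any one of C57Bl/6 arrays 1, 2 and 5, Largemyd arrays 2, 3 and 4, Dmdmdx array 5 and double-mutant arrays 1, 2, 3 and 5. Myh2, the myosin of type IIA fibres, had a contrast of 0.99, adjusted p = 0.0485, and its call was lost without any one of 15 arrays, all but C57Bl/6 array 2, Largemyd array 4 and Dmdmdx arrays 1, 3 and 4. Kcna7, a potassium channel gene, had 0.94, adjusted p = 0.0326, lost without any one of C57Bl/6 arrays 1, 2 and 4, Largemyd arrays 3 and 5, Dmdmdx array 5 and double-mutant arrays 1, 2 and 5. Ostn, the secreted peptide osteocrin, averaged 9.29 ± 0.39 in C57Bl/6, 7.10 ± 0.74 in Largemyd, 7.07 ± 0.40 in Dmdmdx and 6.17 ± 0.14 in the double mutant (mean ± SD, n = 5 each), with a contrast of 1.29, adjusted p = 0.0387, lost without any one of C57Bl/6 arrays 1, 2 and 5, Largemyd arrays 1 and 5, Dmdmdx arrays 2 and 5 and double-mutant arrays 1, 2, 3 and 5. Mstn, myostatin, which limits muscle growth, had a contrast of 1.35 ± 0.42 (SE, adjusted p = 0.0602) and did not pass. Lrrc52, an auxiliary subunit of potassium channels, had 1.36, adjusted p = 0.0489, lost without any one of 15 arrays, all but C57Bl/6 arrays 2 and 5, Largemyd array 2, Dmdmdx array 1 and double-mutant array 4.

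Circadian clock genes had the highest median contrast of the 43 lists, at 0.76. Of 17 measured, 6 passed above 0 (Ciart, Hlf, Bhlhe41, Per3, Nr1d2 and Tef) and none below 0, where 1.32% of all genes passed above 0. Medians against C57Bl/6 were -0.44 in Largemyd, -0.64 in Dmdmdx and -0.36 in the double mutant. Hlf, a clock-driven transcription factor of the PAR bZIP family, was at 7.90, 8.68, 8.32, 8.004 and 8.10 in the C57Bl/6 arrays, 7.23, 7.18, 7.97, 8.33 and 7.09 in Largemyd, 6.97, 7.10, 7.10, 6.99 and 7.04 in Dmdmdx and 7.70, 7.91, 7.94, 7.88 and 7.81 in the double mutant. Every double-mutant array lay above every Dmdmdx array and within or just below the C57Bl/6 range. Largemyd spread from 7.09 to 8.33 and overlapped each of the other lineages. The contrast of 1.45 ± 0.25 (SE, adjusted p = 0.000286) passed under every setting. Ciart, a repressor of the clock activators, was at 7.10, 8.85, 8.63, 7.98 and 8.30 in the C57Bl/6 arrays, 6.09, 6.70, 7.81, 7.89 and 6.12 in Largemyd, 6.86, 7.32, 7.36, 6.98 and 6.42 in Dmdmdx and 7.32, 8.06, 7.33, 7.48 and 7.56 in the double mutant. Groups overlapped, and the contrast of 1.81 ± 0.46 (SE, adjusted p = 0.016) was lost without the high-Xist arrays and without the other-tissue arrays. Per3, a period gene, averaged 8.63 ± 0.39 in C57Bl/6, 8.20 ± 0.61 in Largemyd, 8.06 ± 0.11 in Dmdmdx and 8.70 ± 0.14 in the double mutant (mean ± SD, n = 5 each), with a contrast of 1.08 ± 0.28 (SE, adjusted p = 0.0213).

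The activators Arntl (-0.49) and Clock (-0.28) had contrasts below 0 that did not pass, and Dbp (1.19), Per2 (0.95), Cry2 (0.89) and Per1 (0.78) ones above 0 that did not pass. Without the high-Xist arrays 1 clock gene passed (Hlf), without the other-tissue arrays 2 (Hlf and Nr1d2), without Dmdmdx array 5 4 and without C57Bl/6 array 2 3. The call of Per3 was lost without any one of C57Bl/6 array 2 and Largemyd arrays 2 and 5, that of Bhlhe41 without C57Bl/6 array 2, Largemyd array 1 and Dmdmdx array 5, and that of Tef without C57Bl/6 array 2, Largemyd arrays 2 and 5, Dmdmdx array 5 and double-mutant array 2. The hour of dissection was not among the labels used here, and its part in the result was not tested. At 21 days the contrasts of Hlf, Ciart and Per3 were 0.31, 0.04 and 0.08, and at 6 months 0.52, 0.08 and -0.17, none past the threshold. For these genes the difference of the 3-month contrast from either age did not pass.

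Clock activators bind the E-box CACGTG, and the PAR bZIP factors, Hlf and Tef among them, the D-box TTANGTAA. The promoters of 3 clock genes that passed are printed from RefSeq, build GRCm38.p6, to show how these letters lie, in capitals, from 250 bases before to 50 bases after the gene start.
Ciart, chr3:95882179-95882478, minus strand: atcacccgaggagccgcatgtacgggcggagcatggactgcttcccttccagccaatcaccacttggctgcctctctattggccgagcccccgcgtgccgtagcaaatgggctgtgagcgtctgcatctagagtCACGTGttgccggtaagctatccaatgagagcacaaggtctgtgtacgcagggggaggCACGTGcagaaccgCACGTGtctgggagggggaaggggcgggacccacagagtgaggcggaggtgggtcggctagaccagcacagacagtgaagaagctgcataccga
Bhlhe41, chr6:145865371-145865670, minus strand: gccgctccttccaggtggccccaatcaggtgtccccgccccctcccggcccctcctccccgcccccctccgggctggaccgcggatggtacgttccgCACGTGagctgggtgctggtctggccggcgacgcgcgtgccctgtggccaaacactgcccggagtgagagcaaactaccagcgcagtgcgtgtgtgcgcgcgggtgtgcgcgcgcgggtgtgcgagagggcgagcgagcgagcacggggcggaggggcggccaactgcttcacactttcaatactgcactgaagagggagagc
Per3, chr4:151044616-151044915, minus strand: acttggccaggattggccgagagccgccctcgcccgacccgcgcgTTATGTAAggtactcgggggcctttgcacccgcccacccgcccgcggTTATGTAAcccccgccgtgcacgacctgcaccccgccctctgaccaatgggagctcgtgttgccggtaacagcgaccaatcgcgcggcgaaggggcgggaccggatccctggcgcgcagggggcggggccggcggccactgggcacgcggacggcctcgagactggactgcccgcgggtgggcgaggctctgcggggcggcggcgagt
Both motifs were counted on both strands. CACGTG reads the same on either, while TTANGTAA reads TTACNTAA on the other strand, and a match to either form was counted. Of the 6 genes, 3 (Ciart, Bhlhe41 and Tef) held an E-box, and Per3 held 2 D-boxes. Ciart held 3 E-boxes, a number reached by 0.0883% of 32851 promoters, while 7.15% held at least 1. At least 1 D-box stood in 2.32% of promoters and at least 2 in 0.0822%. The windows of Hlf and Nr1d2 held neither. Here too the shares count windows, and the 6 genes had 7 windows between them.

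In a small number of genes only 1 single mutant, or only the double mutant, departed from C57Bl/6. Nxpe4, a gene of the neurexophilin and PC-esterase family, was at 7.94, 7.88, 8.03, 8.002 and 8.05 in the C57Bl/6 arrays, 5.91, 6.29, 6.41, 6.37 and 6.31 in Largemyd, 7.80, 7.65, 7.68, 7.80 and 7.61 in Dmdmdx and 7.93, 7.996, 7.90, 7.82 and 7.47 in the double mutant. Only Largemyd was low, below every other array, and the double mutant lay near C57Bl/6 and Dmdmdx, with a contrast of 1.84 ± 0.26 (SE, adjusted p = 1.43e-05). Lrmda, a leucine-rich repeat gene, was likewise low in Largemyd alone, at 7.80 ± 0.13 in C57Bl/6, 6.64 ± 0.13 in Largemyd, 8.04 ± 0.11 in Dmdmdx and 8.12 ± 0.20 in the double mutant (mean ± SD, n = 5 each), with a contrast of 1.25 ± 0.20 (SE, adjusted p = 0.000178). Klk1b22, a tissue kallikrein, was at 5.34, 5.67, 4.97, 5.80 and 5.85 in the C57Bl/6 arrays, 9.38, 8.75, 8.16, 8.27 and 8.35 in Largemyd, 5.45, 5.10, 4.93, 5.28 and 5.03 in Dmdmdx and 5.20, 5.12, 5.56, 5.22 and 5.51 in the double mutant. Only Largemyd was high, and the contrast was -2.89 ± 0.65 (SE, adjusted p = 0.00567), which did not pass without the high-Xist and other-tissue arrays together. Kallikrein genes of this cluster are near-identical copies, so the probe set may read more than 1 of them. The step from Largemyd to the double mutant was 1.56 ± 0.18 (SE, adjusted p = 5.52e-08) for Nxpe4, 1.49 ± 0.14 (SE, adjusted p = 1.87e-10) for Lrmda and -3.26 ± 0.46 (SE, adjusted p = 5.96e-06) for Klk1b22.

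Akr1e1, an aldo-keto reductase, was at 5.25, 4.90, 4.79, 4.88 and 5.25 in the C57Bl/6 arrays, 7.52, 8.11, 8.09, 8.12 and 8.14 in Largemyd, 7.91, 8.20, 8.09, 8.34 and 7.53 in Dmdmdx and 4.88, 7.40, 7.34, 7.17 and 4.73 in the double mutant. Both single mutants were high in every array, while double-mutant arrays 1 and 5 lay at the C57Bl/6 level and arrays 2, 3 and 4 between the C57Bl/6 and single-mutant ranges. The contrast of -4.69 ± 0.60 (SE, adjusted p = 2.91e-06) was the largest of all genes that passed, in size. Such a split within the double mutant was rare among genes other than predicted ones, which were left out of the count. A gap over 1.5 log2 units in the middle of the 5 ranked double-mutant values was found at 4 genes. These were Akr1e1, H2-Ea, Hal and Ifi202b, a count made after the values were seen. H2-Ea, the alpha chain of the MHC class II molecule E, was at 5.97, 6.31, 5.89, 5.89 and 5.999 in the C57Bl/6 arrays, 11.99, 12.11, 12.28, 12.04 and 11.34 in Largemyd, 6.35, 5.85, 5.90, 6.02 and 6.08 in Dmdmdx and 11.78, 12.001, 6.02, 6.22 and 11.78 in the double mutant. Largemyd and double-mutant arrays 1, 2 and 5 were high, and the remaining double-mutant arrays stood with C57Bl/6 and Dmdmdx. Arrays 3 and 4, low for H2-Ea, were among the higher double-mutant arrays for Akr1e1, and the contrast of H2-Ea was -2.42 ± 1.25 (SE, adjusted p = 0.364).

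The small RNA genes Snord53 and Rny1 were higher in the double mutant than the sum of the single steps gives. Snord53, a small nucleolar RNA that guides RNA methylation, was at 9.18, 8.99, 9.15, 8.70 and 9.24 in the C57Bl/6 arrays, 8.61, 8.77, 8.82, 9.20 and 10.62 in Largemyd, 9.27, 9.42, 9.81, 8.86 and 9.26 in Dmdmdx and 10.97, 11.29, 11.10, 11.44 and 11.04 in the double mutant. Every double-mutant array exceeded all 15 others, and the contrast was 1.69 ± 0.39 (SE, adjusted p = 0.00787). Both steps to the double mutant passed, at 1.84 ± 0.28 (SE, adjusted p = 3.53e-05) from Dmdmdx and 1.96 ± 0.28 (SE, adjusted p = 7.81e-06) from Largemyd. At 6 months the contrast was reversed, at -1.71 ± 0.39 (SE, adjusted p = 0.00564), and the difference between the ages was 3.40 ± 0.56 (SE, adjusted p = 0.00271). Its call was lost without the high-Xist arrays. Rny1, a Y RNA of the Ro ribonucleoprotein, had the highest contrast of all named genes, 1.87 ± 0.52 (SE, adjusted p = 0.0296), but its groups overlapped (8.56, 7.40, 8.02 and 8.73 on average) and the call was lost without the high-Xist arrays and without any one of C57Bl/6 arrays 4 and 5, Largemyd arrays 1 and 3, Dmdmdx array 1 and double-mutant array 4.

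Of 272 microRNA genes measured, 1 passed (0.368%), a smaller share than the 3.18% of all genes. It was Mir129-1, named after its values were seen. The mature 5p product is printed from RefSeq, on chr6:29022624-29022644 of the plus strand of GRCm38.p6, with the seed, bases 2 to 8, in capitals, since the seed sets which transcripts a microRNA can pair with.
mmu-miR-129-5p: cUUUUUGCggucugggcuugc
Mir129-1, read by a probe set of the hairpin region, was at 7.30, 7.55, 7.17, 7.43 and 7.51 in the C57Bl/6 arrays, 7.28, 6.85, 7.05, 6.998 and 6.98 in Largemyd, 6.998, 6.90, 6.98, 6.83 and 6.77 in Dmdmdx and 7.10, 7.13, 7.27, 7.09 and 7.31 in the double mutant. Dmdmdx was lowest on average and the double mutant overlapped Largemyd and C57Bl/6, with a contrast of 0.65 ± 0.16 (SE, adjusted p = 0.0132). That call was lost without the high-Xist arrays. A probe set of the hairpin does not measure the mature form by itself.

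Lists of vessel and nerve cells held calls above 0, where 1.32% of all genes passed. Erg (0.49, adjusted p = 0.00821) and Robo4 (0.49, adjusted p = 0.0297), both of endothelial cells, passed of 20 measured, with a median of 0.32 that was 0.20 without Dmdmdx array 5. The call of Robo4 was lost without the high-Xist arrays and without the other-tissue arrays. It was also lost without any one of C57Bl/6 arrays 2, 4 and 5, Largemyd arrays 1 and 3, Dmdmdx array 5 and double-mutant arrays 1 and 3. Mbp, a myelin protein, passed of 13 Schwann and myelin genes (0.71, adjusted p = 0.0158), but not without the high-Xist arrays. Among 32 cell cycle genes none passed, with a median contrast of -0.55, which was -0.23 without Dmdmdx array 5 and -0.15 without the high-Xist arrays. Top2a, a marker of dividing cells, averaged 7.47, 7.48, 8.82 and 8.04 in C57Bl/6, Largemyd, Dmdmdx and the double mutant, and was highest in C57Bl/6 array 3 (9.33) and Dmdmdx array 5 (10.66), both arrays with raised marrow markers. Its contrast was -0.79 ± 0.72 (SE, adjusted p = 0.722). No gene passed among adipocyte, pericyte and smooth muscle, slow fibre, dystroglycan glycosylation, laminin and integrin, immediate early or ribosomal protein genes.

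Separate arrays of the other ages gave a check on the direction of these genes. At 21 days 3030 genes passed for the contrast (15.2%), 1285 above 0 (6.44%) and 1745 below 0 (8.75%), and at 6 months 1001 (5.02%), 592 above 0 (2.97%) and 409 below 0 (2.05%). Of the 372 genes below 0 at 3 months, 371 were below 0 at 21 days, where 39.3% of all genes were, and 324 passed there. At 6 months 363 were below 0, where 9977 of 19938 genes were, and 161 passed. Of the 263 genes above 0, 243 were above 0 at 21 days, where 60.7% of all genes were, and 96 passed there. Among the same 263, 247 were above 0 at 6 months, where 9961 of 19938 genes were, and 109 passed. At 6 months 2 of the 263 passed below 0, Snord53 and Erg. Median contrasts of the 372 genes were -0.91 at 21 days, -0.81 at 3 months and -0.59 at 6 months.

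Few genes had a contrast that differed between ages past the threshold. Against 21 days no gene passed (0.0%), with 1742 at an unadjusted p under 0.05. Against 6 months 4 passed (0.0201%), with 880 at an unadjusted p under 0.05. Those 4 were Snord53, Erg and the vomeronasal receptor gene Vmn1r17, higher at 3 months, and Zdhhc14, a palmitoyltransferase gene, lower. Macrophage markers past the threshold below 0 numbered 30 of 31 at 21 days, 23 at 3 months and 21 at 6 months.

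**Figure D5:**
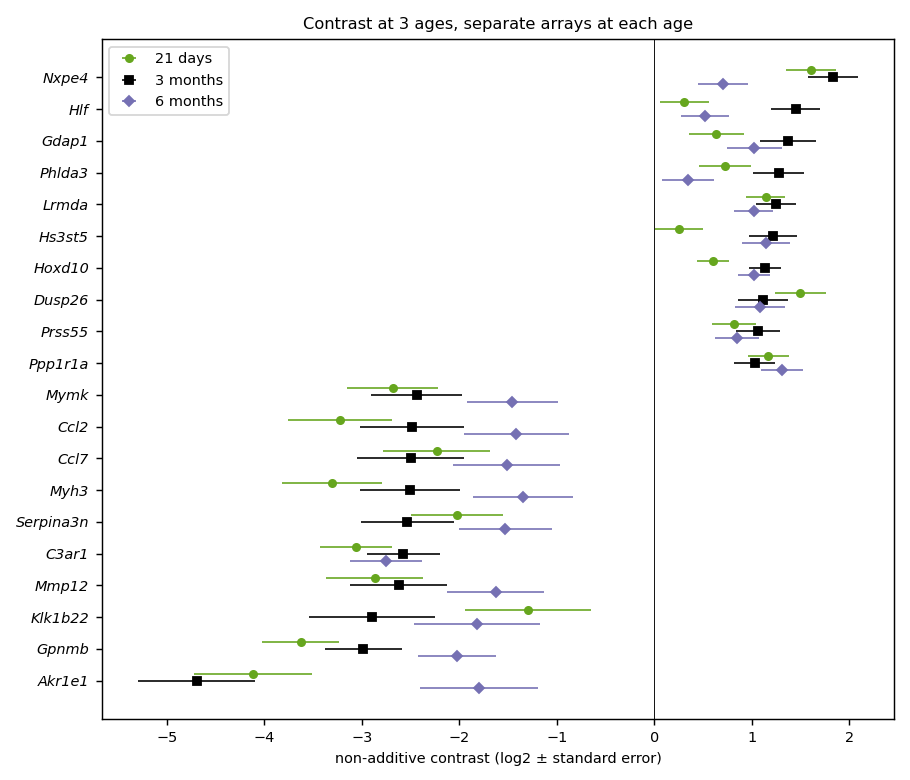
Contrast with its standard error (horizontal axis, log2) at 21 days, 3 months and 6 months for the 10 largest genes in each direction that also passed without the high-Xist arrays and without the other-tissue arrays. Signs at 21 days and 6 months match those at 3 months for all 20 genes, while sizes vary, as for Hlf (1.45 at 3 months, 0.31 at 21 days).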

How the data were processed

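Calf muscle of mice labelled male (a label that Xist and Y-chromosome genes go against in 3 of the 20 arrays) was measured on Affymetrix Mouse Gene 1.0 ST arrays, 1 per animal, with total RNA, and no technical replicates. Per the submitters' processing notes and the labels, the authors summarised the arrays with RMA in Affymetrix Expression Console (version not given in the sources used here); the deposited table holds log2 levels. Nothing was rescaled for the main comparison. Arrays of an age share a level of their own (means of 7.19 to 7.27 at 3 months), so ages were compared only through differences within an age.

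Of 35556 probe sets, 21789 carry 1 gene symbol, 1621 several and 12146 none, and 21698 were matched by Entrez identifier. The probe set with the highest mean over 60 arrays was kept for each of 999 genes with several, which left 19938 genes. limma 3.58.1 in R 4.3.3 fitted 12 group means to the 60 arrays (48 residual degrees of freedom, lmFit and eBayes). The fit was tested on simulated data. Intensities and scanner background were not used here. Each group mean rests on 5 animals, while the variance behind each SE and p was pooled over all 12 groups, the other ages included. An SE can therefore be larger or smaller than the spread of the groups it compares would give.

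Named genes are the 10 largest contrasts in each direction past the threshold, apart from predicted genes, the 10 largest that also passed without high-Xist arrays (Xist above 8) and without other-tissue arrays (a marker mean exceeding the median of the 20 arrays by over 2 log2 units), up to 4 members of each of 43 lists (849 of 924 genes measured) with up to 2 that did not pass, and Dmd, Utrn and Dag1. Further list members, given by contrast alone, were picked after their values were seen. The members and lists were chosen with earlier results of these data known. Lists share members, so that a call can count in several of them. Alternatives were another scaling, weights, filter, probe set rule, variance model, covariates and arrays left out.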

Additional observations from a re-analysis of the deposited data

Results flagged for a closer look

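In each lineage at 3 months the highest or lowest of the 5 arrays was compared with the rest (its gap to the nearest value over the range of the group, with a critical value of 0.71) for 67 genes, 268 groups in all. Chance alone marks about 1 group in 20. Of the 35 values marked, 16 were of Dmdmdx array 5 and 9 of double-mutant array 4.

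Dmdmdx array 5 was lowest of its lineage at Dmd (7.41), Dag1 (10.45), Myl4 (11.88), Chrna1 (9.05), Ncam1 (9.50), Igf2 (9.996), Nos1 (7.44), Mstn (7.71), Myh2 (10.17), Slc25a20 (8.54), Eci1 (9.28), Acadvl (8.58), Kcna7 (7.17), Phlda3 (9.74), Nr1d2 (9.71) and Tef (8.47). This array also had the lowest skeletal muscle and the highest marrow markers, and the part of these in the values was not tested. Double-mutant array 4 was lowest at the regeneration genes Myh3 (9.64), Mymk (9.40), Myl4 (12.87), Tnnt2 (11.08), Chrng (8.38), Chrna1 (10.52), Ncam1 (9.94) and at Peg3 (10.32), and highest at Timp1 (11.25).

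The remaining values were spread over other arrays. Gpnmb was lowest in double-mutant array 1 (11.14), Postn highest in double-mutant array 3 (13.02) and Nos1 highest in double-mutant array 5 (7.90). Ccl7 was highest in C57Bl/6 array 4 (7.54), and H2-Ea in C57Bl/6 array 2 (6.31). In Largemyd, Chrna1 was highest in array 3 (11.29), Gdap1 lowest (6.17) and Ngp, a neutrophil granule gene, highest (8.45) in array 5, and Akr1e1 (7.52) and Nxpe4 (5.91) lowest in array 1. The contrast of Snord53 at 3 months exceeded that at 6 months by 3.40 log2 units (limma, adjusted p = 0.00271), with opposite signs at the ages.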

How the results depend on the processing

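No paired analysis was possible because the 3-month arrays share no replicate numbers in the labels. Of 635 genes called, settings that kept the count within 1.5 times gave 532 to 684. Array weights gave 2495 (1105 above 0, 1390 below 0). Leaving out the high-Xist arrays gave 307 (80 and 227), the other-tissue arrays 133 above 0, and both kinds 239 (55 and 184). Subtracting array medians turned the split to 352 above 0 and 332 below 0, against 263 and 372, and the 20 arrays alone to 199 and 423. With each array left out in turn, the counts ranged from 422 to 929 in all, 138 to 394 above 0 and 243 to 535 below 0.

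The steps moved as well. With array weights Largemyd minus C57Bl/6 gave 6500 genes, double mutant minus Dmdmdx 1382, double mutant minus Largemyd 2700 and double mutant minus C57Bl/6 9236; with covariates for Xist, marrow and lymph node markers they gave 1067, 63, 975 and 3343. Without the high-Xist arrays, without the other-tissue arrays and without both, double mutant minus Dmdmdx gave 141, 136 and 47 genes. Double mutant minus Largemyd gave 347 and 367 under the first 2 of these, and Dmdmdx minus C57Bl/6 3182 and 2414 under the first and the last. With 1 array left out in turn, double mutant minus Dmdmdx ranged from 206 to 441, double mutant minus Largemyd from 103 to 361, and the difference from 21 days from 0 to 2 genes. That difference gave 134 genes with array weights and 2 without the high-Xist arrays, and the difference from 6 months 267 with weights. The cause of these shifts was not tested, beyond fewer arrays where arrays were left out.

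Of 70 named genes past the threshold, 33 passed under all 31 settings, and no named gene changed sign in its call. Scanner signals were not used here, so levels near background could not be marked.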

Other observations

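Akr1e1 and H2-Ea also varied within lineages at other ages. At 6 months both the low and the high level were seen among the Largemyd arrays for each gene, and among the double-mutant arrays for H2-Ea. At 6 months Akr1e1 stood at 8.2, 8.0, 8.4, 4.8 and 5.3 in the Largemyd arrays and between 8.2 and 8.6 in all double-mutant arrays. At 21 days its double-mutant values were 6.9, 7.2, 8.1, 8.2 and 6.6, all above the C57Bl/6 arrays of that age, at 5.2 or below. H2-Ea at 6 months was at 11.6, 12.4, 11.8, 11.4 and 6.1 in Largemyd and at 11.1, 6.0, 5.7, 5.7 and 5.9 in the double mutant, and at 21 days at 9.0, 5.5, 9.4, 9.6 and 9.3 in the double mutant. Even the higher values at 21 days lay below the Largemyd arrays of that age, at 10.8 or above. C57Bl/6 arrays held the low level of both genes at every age, and Dmdmdx arrays held the high level of Akr1e1 and the low level of H2-Ea.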
